A study of Mus musculus with 49 samples.

Results

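The 10 immediate early genes Fos, Fosb, Jun, Junb, Egr1, Egr2, Egr3, Arc, Npas4 and Ier2 were chosen by name, as genes that neuronal activity induces, and all 10 were found among the 52636 genes counted. Their levels were examined in 47 RNAseq libraries from the nucleus accumbens (NAc) of C57BL/6J mice in which dopamine receptor D1- or D2-expressing medium spiny neurons (MSNs) were labelled by Cre under the promoter of Drd1 or Drd2. Whole cell-FACS libraries (8 D1 and 6 D2) came from mice with a cytoplasmic fluorophore, and their fresh tissue was digested for 45 minutes at 37 °C with papain at 1 mg/mL before sorting. Nuclear-FACS libraries (6 D1 and 5 D2) came from crosses of these Cre lines (Drd1-cre, Drd2-cre) to Thy1-loxPSTOPloxP-EGFP-F, and nuclei were released mechanically from frozen tissue and sorted. RiboTag libraries came from Drd1-cre or Drd2-cre x Rpl22-loxPexon4loxP-exon4-HA mice, and RNA bound to HA-tagged ribosomes was immunoprecipitated from fresh tissue; 12 were labelled male (6 D1 and 6 D2) and 10 female (5 D1 and 5 D2). All whole cell and nuclear libraries were labelled male, no group received a drug or stimulus, and the ages were not given in the sources used here. The line, the state of the tissue and the fraction of RNA changed together with the method, so their parts in a difference between methods cannot be told apart.

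Immediate early genes are transcribed within minutes of synaptic activity from factors already present in the cell, without new protein synthesis, and their messengers are short-lived. Most encode transcription factors that switch on later genes; Arc instead encodes a postsynaptic protein that takes part in the removal of AMPA receptors. In MSNs, dopamine and glutamate induce them through cyclic AMP and MAP kinase signalling to CREB and to serum response factor, and Fos and Arc are widely used as marks of recently active striatal neurons. The same genes are known to respond to the handling and enzymatic dissociation of tissue, in neurons and in glia.

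The promoters of 3 AP-1 members, Fos, Fosb and Junb, are shown because these genes belong to 1 family and yet differed in level between methods, and because their windows lay outside annotated exons. The sequences are from RefSeq (GRCm38.p6), end 1 base before the RefSeq start of Fos and Junb and, for Fosb, at the last base outside annotated exons, and are written 5′ to 3′ on the strand of the gene. Capitals mark the core of the cyclic AMP response element to which CREB binds, written TGACG on either strand. They also mark the TATA box, whose letters are TATAA.
Fos, chr12:85473690-85473889 (+): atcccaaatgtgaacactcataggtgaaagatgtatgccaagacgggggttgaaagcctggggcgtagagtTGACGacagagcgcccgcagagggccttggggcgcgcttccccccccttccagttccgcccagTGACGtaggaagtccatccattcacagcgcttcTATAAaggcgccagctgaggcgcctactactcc
Fosb, chr7:19310052-19310245 (-): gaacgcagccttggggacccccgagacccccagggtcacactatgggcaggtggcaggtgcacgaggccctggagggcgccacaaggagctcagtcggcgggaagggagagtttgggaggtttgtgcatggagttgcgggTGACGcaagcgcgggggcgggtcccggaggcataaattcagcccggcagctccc
Junb, chr8:84978749-84978948 (-): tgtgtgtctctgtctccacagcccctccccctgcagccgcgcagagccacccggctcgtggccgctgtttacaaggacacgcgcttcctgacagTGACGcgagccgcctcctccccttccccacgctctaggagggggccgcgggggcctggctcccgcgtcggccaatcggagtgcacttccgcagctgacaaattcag
In Fos the core began 129 and 66 bases before the start and the TATA box 33 bases before it. The core began 60 bases before the start of Fosb and 106 bases before that of Junb. Of the 6 members with a RefSeq promoter, 5 held TGACG on either strand within 250 bases before the start, where 17.8% of all 32851 promoters did, and 3 held TATAA, where 22.8% did. The core of the serum response element, the CArG box, was in 1 of the 6 (Egr2) and in 1.47% of all promoters. The full element TGACGTCA, which contains the core, was in 0 of the 6 and in 1.55% of all promoters. These matches describe the letters only and show no binding.

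On GRCm38, the AP-1 genes were Fos at chr12:85473890-85477273 (+), Fosb at chr7:19302696-19310051 (-), Jun at chr4:95049034-95052222 (-) and Junb at chr8:84974484-84978718 (-). The zinc finger genes were Egr1 at chr18:34859823-34864984 (+), Egr2 at chr10:67535475-67542188 (+) and Egr3 at chr14:70077203-70082614 (+). Arc lay at chr15:74669083-74672570 (-), Npas4 at chr19:4984355-4990316 (-) and Ier2 at chr8:84661331-84662852 (-). Counts were taken over each of these spans, exons and introns together. Jun overlaps the antisense gene Junos over 689 bases and Junb overlaps Prdx2 over 351 bases, and a fragment there was counted for both genes of the pair.

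Library totals ranged from 3701255 to 68777008 counts, and 3 counts, taken as the floor of a library, from 0.0436 to 0.811 CPM, a unit that divides a count by the library total. Each sample came from a different mouse. The methods differed strongly in composition: the TMM factor that scales a library's total was 0.276 to 0.364 in RiboTag, 0.743 to 2.78 in nuclear D1, 3.42 to 4.48 in nuclear D2 and 1.81 to 4.60 in whole cell libraries. A level is therefore given below as FPKM, fragments per kilobase of gene span scaled to the TMM size of each of the 47 libraries, and a difference between methods is given relative to the median gene. Library labels were checked against the summed counts of the 4 Y-linked genes Ddx3y, Eif2s3y, Kdm5d and Uty. Of the 12 RiboTag libraries labelled male, D1 no. 1 to 4 and D2 no. 2 held 0.0348 to 0.743 CPM of them, near the 0 to 0.246 CPM of libraries labelled female, whereas 6 others held 8.54 to 10.7 CPM and D2 no. 6 held 1.78 CPM. Tests, ratios and levels that rest on RiboTag libraries labelled male were repeated without these 5 libraries, which leaves 2 D1 and 5 D2 libraries, and "labelled male" is used throughout.

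The 13 MSN markers, from Ppp1r1b to Drd1 and Drd2, were detected in every group and summed to 792 CPM at the lowest, in a RiboTag D1 library, and to at most 11459 CPM, in a whole cell D2 library. Markers of other cells were present too. The 9 microglial markers, none of which was at 0 throughout a group, summed to 844 to 2235 CPM in nuclear D1, 455 to 937 CPM in nuclear D2, 220 to 548 CPM in whole cell D1, 215 to 4491 CPM in whole cell D2 and 13.3 to 18.7 CPM in RiboTag libraries. Since glia also express immediate early genes, these values accompany every comparison below, and their part in it was not tested. In such bulk libraries, fewer cells expressing a gene and less of its RNA per cell cannot be told apart.

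The dominant members on ribosomes were Egr1 and Egr3, zinc finger transcription factors of the same family, followed by Arc, Junb and Jun. In RiboTag libraries labelled male, Egr1 was at 12.6 ± 2.92 FPKM (SD, n = 6) in D1- and 13.2 ± 2.26 FPKM (SD, n = 6) in D2-MSNs, ranging from 7.39 to 15.2 with a median of 13.2 and from 10.7 to 16.7 with a median of 12.8. Egr3 was at 8.62 ± 1.36 and 9.52 ± 1.03 FPKM in the same libraries, and Arc at 6.00 ± 2.09 and 7.09 ± 2.85 FPKM. The AP-1 subunits Junb (3.24 ± 0.374 and 3.28 ± 1.04 FPKM) and Jun (3.17 ± 0.635 and 2.61 ± 0.334 FPKM) came next. The remaining members were all below 1 FPKM on average. The order Egr1, Egr3, Arc, Junb, Jun, Fos held in all 4 RiboTag groups, and also without the 5 libraries that lacked Y-linked counts, where Egr1 averaged 9.76 FPKM in the 2 D1 and 12.5 FPKM in the 5 D2 libraries left. The gap from Egr1 to Egr3 exceeded the larger SD in each of the 4, and so did the gap from Jun to Fos, whereas the gaps from Junb to Jun in the groups labelled male and from Fos to Fosb in all 4 did not. Egr1 took 35.3% ± 3.1 (SD, n = 6) of the members' summed FPKM in D1 and 35.3% ± 5.2 in D2 libraries labelled male.

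Fos, the AP-1 partner of Jun, and Npas4, a neuron-specific factor that depends on calcium influx, were minor on ribosomes. Fos was at 0.628 ± 0.274 FPKM in RiboTag D1 and 0.562 ± 0.470 FPKM in D2 libraries labelled male, and Npas4 at 0.396 ± 0.146 and 0.399 ± 0.318 FPKM (SD, n = 6 each). Fosb, whose truncated form ΔFosB accumulates in MSNs on repeated stimulation, was at 0.621 ± 0.217 and 0.511 ± 0.126 FPKM, and Egr2, another factor of the Egr family, at 0.161 ± 0.0870 and 0.276 ± 0.0646 FPKM. These low levels rest on few fragments: 4 to 62 counts of Fos, 10 to 76 of Npas4 and 3 to 26 of Egr2 in a RiboTag library labelled male. Ier2, a short gene of 1522 bases that encodes a nuclear protein, had at most 9 counts in any RiboTag library and no count in all 5 D2 libraries labelled female.

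In nuclei the members lay closer together. In nuclear D1 libraries Arc ranged from 0.777 to 10.8 FPKM (median 2.39) and Egr1 from 0.766 to 9.19 FPKM (median 2.45), a wide range that shrank to 6.77 to 27.9 CPM for Arc and 11.0 to 35.2 CPM for Egr1 when counts were divided by library totals alone. Library no. 1, with 10.8 FPKM of Arc and 9.19 FPKM of Egr1, and no. 5, with 7.48 and 5.67 FPKM, were the highest, and no. 3 was the lowest for both. Npas4 had the fourth highest mean of the members in nuclear D1 libraries at 1.25 ± 0.646 FPKM (SD, n = 6) and the second highest in nuclear D2 libraries at 0.651 ± 0.325 FPKM (SD, n = 5). No gap between neighbours in the order exceeded the larger SD in either nuclear group, so the nuclear order is not resolved at this spread.

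In sorted whole cells Junb and Arc had the highest means. The counts of Junb include any fragments of Prdx2 from the 351 bases that these genes share. Junb was at 1.63 ± 0.867 FPKM (SD, n = 8) in D1 and 1.74 ± 1.06 FPKM (SD, n = 6) in D2 libraries, Arc at 1.46 ± 0.775 and 2.80 ± 2.25 FPKM, and Egr1 at 1.29 ± 0.808 and 1.66 ± 0.741 FPKM. Fos was even among D1 libraries, from 0.331 to 0.639 FPKM with a median of 0.520, and the mean of 0.496 FPKM lay near the 0.512 FPKM of nuclear D1 and below the 0.628 FPKM of RiboTag D1 libraries labelled male. Divided by library totals alone the order was the reverse, at 6.05 ± 0.91 CPM in whole cell D1, 2.15 ± 0.94 CPM in nuclear D1 and 0.655 ± 0.29 CPM in RiboTag D1 libraries labelled male. Ier2 had no count in all 6 whole cell D2 libraries and at most 10 counts in a D1 library. In whole cell libraries only the gap from Fosb to Ier2 exceeded the larger SD. With summed exons as the gene length in place of the gene span, Arc and Junb exchanged places in whole cell D2 libraries. The plot of levels by library shows the split of the members on ribosomes beside their narrower spread in sorted cells and nuclei.

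**Figure D1:**
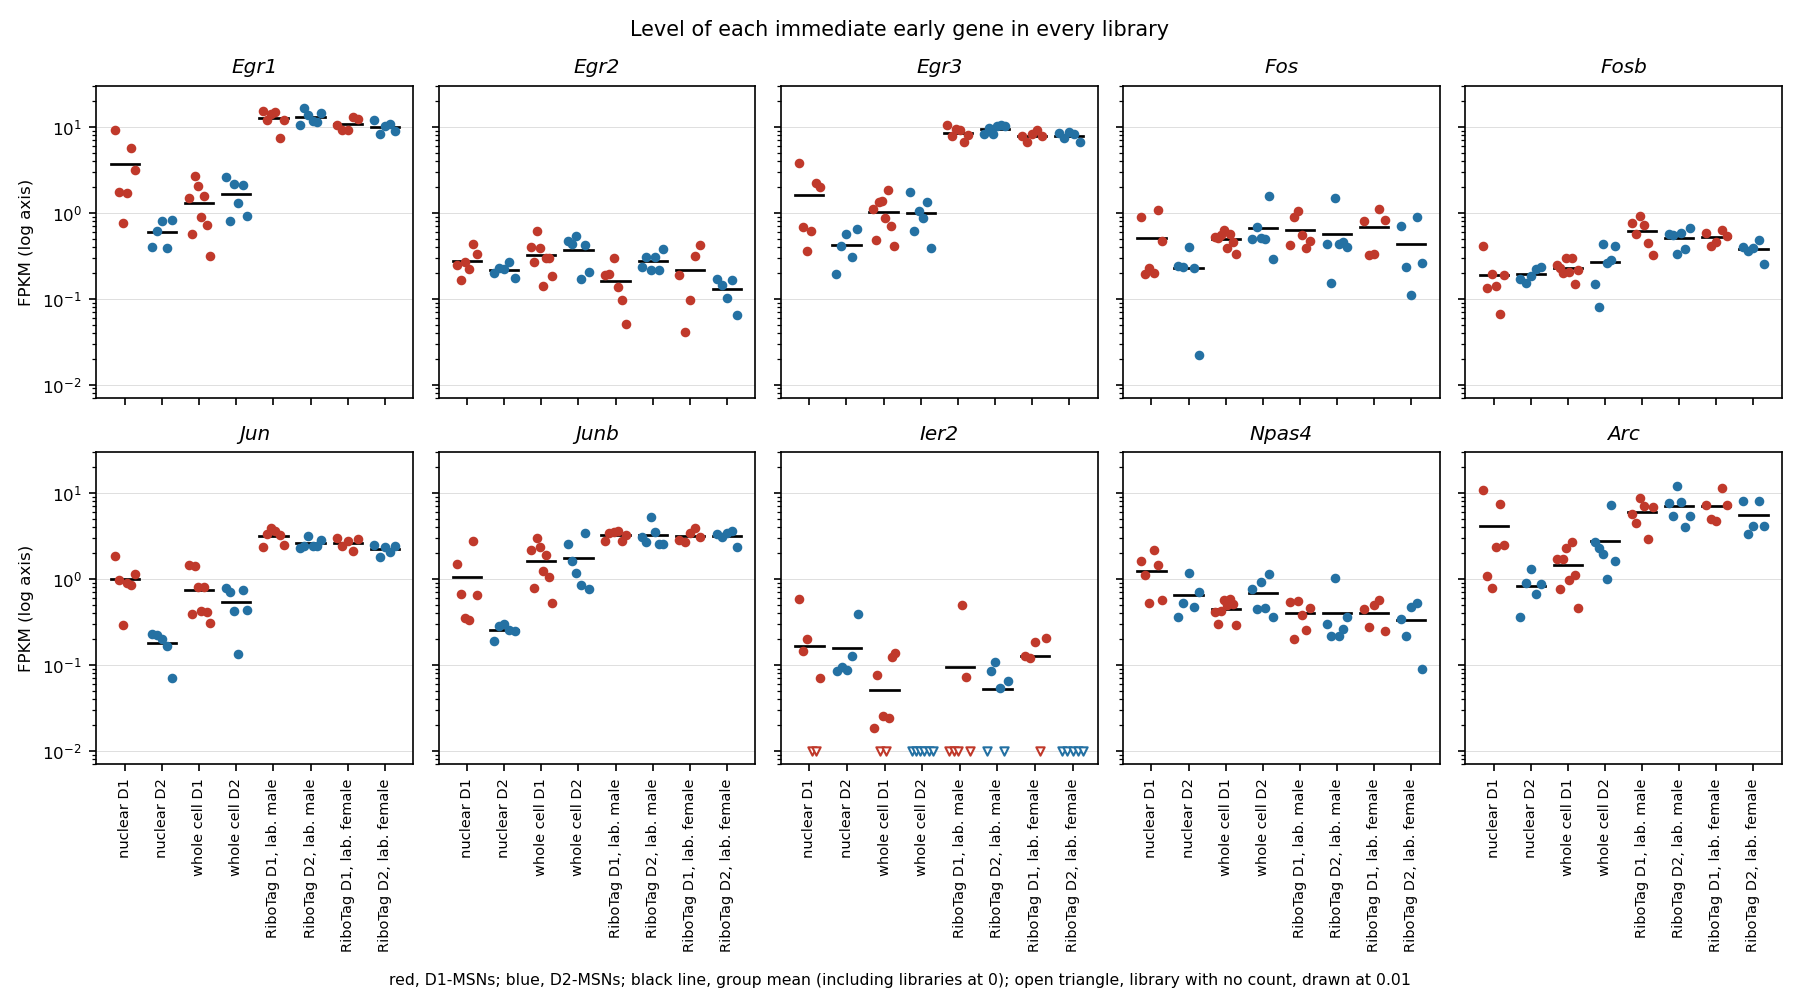
FPKM (log axis) of each of the 10 immediate early genes in every library, by method, cell type and labelled sex; points are libraries, black lines group means, and open triangles libraries with no count. In RiboTag libraries Egr1 sits between 7.39 and 16.7 FPKM and Npas4 between 0.0883 and 1.04 FPKM, whereas in nuclear D2 libraries Egr1 is between 0.391 and 0.817 FPKM and Npas4 between 0.363 and 1.19 FPKM.

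Ratios within a library do not depend on how libraries are scaled, and they differed between methods. The log2 ratio of Npas4 to Egr1, per length of gene, ranged from -2.49 to 0.371 (median -1.30) in nuclear D1, from -2.64 to -0.120 (median -1.18) in whole cell D1 and from -5.85 to -4.66 (median -4.81) in RiboTag D1 libraries labelled male. The RiboTag values overlapped neither of the others. The mean ratio on ribosomes was different from that in nuclei by -3.73 on the log2 scale (exact permutation test, two-sided, p = 0.00216, adjusted p = 0.0106 over 44 tests of ratios) and from that in whole cells by -3.74 (exact permutation p = 0.000666, adjusted p = 0.00977). In D2-MSNs the ratio was 0.055 ± 0.36 (SD, n = 5) in nuclei, -1.27 ± 0.35 (SD, n = 6) in whole cells and -5.25 ± 0.83 (SD, n = 6) on ribosomes. All 3 methods were apart from each other there, since whole cells differed from nuclei by -1.32 without overlap (exact permutation p = 0.00433, adjusted p = 0.0127).

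The ratio of Fos to Egr1 followed the same direction between ribosomes and whole cells but not between whole cells and nuclei. Among D1 libraries, whole cells were at -1.11 ± 0.80 (SD, n = 8), nuclei at -2.70 ± 0.59 (SD, n = 6) and ribosomes labelled male at -4.36 ± 0.57 (SD, n = 6). Whole cell D1 libraries thus held more Fos per Egr1 than nuclei, with a log2 difference of 1.60 (exact permutation p = 0.00133, adjusted p = 0.0106), and ribosomes less than whole cells, with a difference of -3.25 (exact permutation p = 0.000666, adjusted p = 0.00977). In D2-MSNs, ribosomes and whole cells differed by -3.44 (exact permutation p = 0.00216, adjusted p = 0.0106), whereas whole cells and nuclei differed by 0.34 (exact permutation p = 0.727). The nuclear D2 value included library no. 7, which held 1 count of Fos and had a log2 ratio of -4.65.

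The ratios of Egr3 and of Arc to Egr1 moved less between ribosomes and either sorted fraction. Egr3 to Egr1 was -0.53 ± 0.19 in RiboTag D1 libraries labelled male, -0.22 ± 0.44 in whole cell D1 and -1.19 ± 0.29 in nuclear D1 libraries, and ribosomes and whole cells differed by -0.31 (exact permutation p = 0.134, adjusted p = 0.268). Both lay above nuclei in D1, whole cells by 0.97 (exact permutation p = 0.00133, adjusted p = 0.0106) and ribosomes by 0.67 (exact permutation p = 0.00433, adjusted p = 0.0127). In D2 whole cells differed from nuclei by -0.20 and ribosomes by 0.09, and neither passed. Arc to Egr1 was -1.12 ± 0.32, 0.27 ± 0.44 and 0.0094 ± 0.46 in the same groups, and was lower on ribosomes than in whole cells, with a difference of -1.39 (exact permutation p = 0.000666, adjusted p = 0.00977). Of the 12 tests of these 4 ratios between D1- and D2-MSNs of 1 method in animals labelled male, 1 passed: Egr3 to Egr1 was higher in nuclear D2 than D1 libraries, with a difference of 0.64 (exact permutation p = 0.00866, adjusted p = 0.0238). None of the 8 tests between libraries labelled female and male passed, and the lowest of their p-values was 0.0563 (exact permutation test, Arc to Egr1 in D1-MSNs). Without the 5 libraries that lacked Y-linked counts, Npas4 to Egr1 on ribosomes still did not overlap nuclei or whole cells in either cell type, with differences of -3.47 and -3.48 in D1 and -5.12 and -3.79 in D2. With only 2 D1 libraries left the exact permutation test could not go below p = 0.0714 against nuclei or 0.0444 against whole cells, and no D1 ratio passed adjustment over the 28 tests repeated (lowest adjusted p = 0.138). In D2, Npas4 to Egr1 and Arc to Egr1 passed against both fractions and Fos to Egr1 passed against whole cells (exact permutation, adjusted p = 0.0485 for each), while Fos to Egr1 against nuclei, at -2.74, no longer did (exact permutation p = 0.0317, adjusted p = 0.138). A ratio compares 2 genes and does not say which of them changed.

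**Figure D2:**
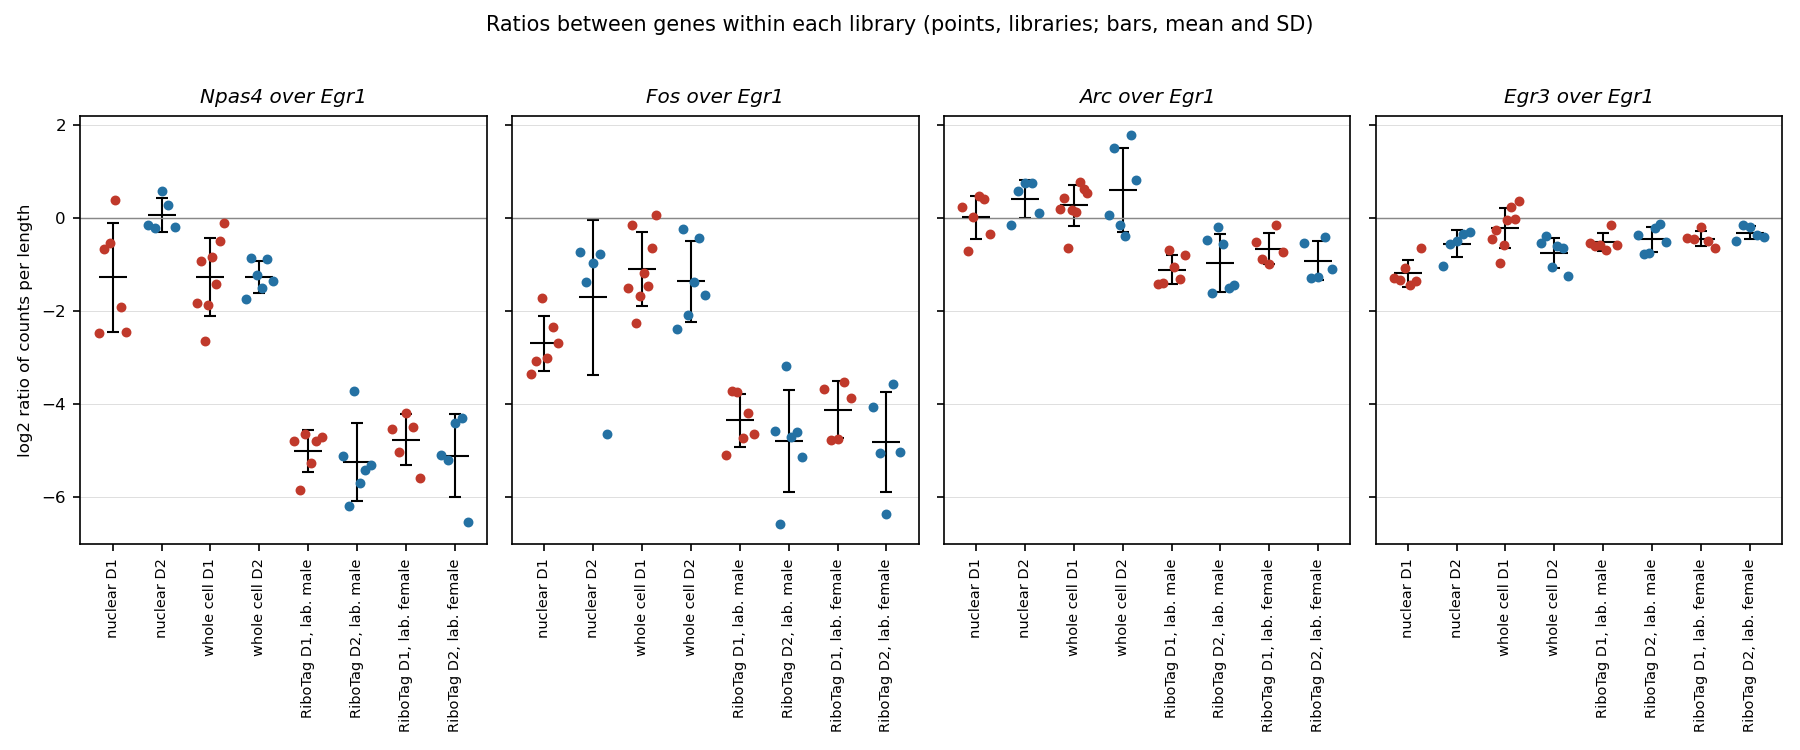
Log2 ratio of 4 pairs of members within each library, from counts per length of gene with 0.5 count added; points are libraries, and bars show mean and SD for each method, cell type and labelled sex. Npas4 over Egr1 and Fos over Egr1 are lowest in RiboTag libraries, with means of -5.25 to -4.78 and -4.82 to -4.13, while Egr3 over Egr1 stays between -1.19 and -0.22 on average in all groups.

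Between D2- and D1-MSNs, only the nuclear libraries gave members past the test with TMM scaling: Jun and Egr1 were lower in D2 nuclei. With library totals in place of TMM, neither was called. A gene was called at an adjusted p of at most 0.05 (edgeR quasi-likelihood test, Benjamini-Hochberg adjustment over all genes tested) with an absolute log2 fold change above 0.38. Egr1 was at 9.19, 1.76, 0.766, 1.69, 5.67 and 3.14 FPKM in nuclear D1 libraries and at 0.404, 0.609, 0.793, 0.391 and 0.817 FPKM in nuclear D2 libraries. The lowest D1 library, no. 3, overlapped 2 of the 5 D2 libraries. The log2 fold change of Egr1 was -1.53 (SE 0.415, adjusted p = 0.0247). This fold was scaled over the nuclear libraries alone, whereas the FPKM were scaled over all 47, so the FPKM means stand further apart than the fold. In CPM, Egr1 was at 11.0 to 35.2 in D1 and 8.49 to 15.4 in D2 libraries. Jun was at 1.84, 0.963, 0.290, 0.888, 0.841 and 1.13 FPKM in D1 and at 0.227, 0.224, 0.201, 0.165 and 0.0696 FPKM in D2 libraries, and the groups did not overlap on that scale. In CPM they did, at 2.58 to 6.58 in D1 and 0.811 to 2.95 in D2 libraries. Its log2 fold change was -1.33 (SE 0.374, adjusted p = 0.0281). Since strand was ignored in counting, reads of Jun and of its antisense gene Junos cannot be told apart in the 689 bases that these genes share.

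Of the 7 members tested in nuclei, 2 were called lower and 0 higher, where 17.3% of the 10192 genes tested were called and 10.4% were called lower. Arc, Egr3 and Junb also had negative log2 fold changes, -1.20 (SE 0.499, adjusted p = 0.105), -0.87 (SE 0.450, adjusted p = 0.184) and -0.84 (SE 0.410, adjusted p = 0.159). Fos and Npas4 were at 0.02 (SE 0.527) and 0.07 (SE 0.327) in this fit, although their means fell from 0.512 to 0.225 FPKM and from 1.25 to 0.651 FPKM on the scale of all 47 libraries, and rose from 2.15 to 2.91 CPM and from 11.9 to 14.5 CPM by library totals. Junb was at 0.190 to 0.299 FPKM in the 5 D2 libraries and at 0.335 to 2.76 FPKM in the 6 D1 libraries, without overlap, but at 3.28 to 4.86 and 3.19 to 12.5 CPM, with overlap, and Arc at 0.361 to 1.32 against 0.777 to 10.8 FPKM, with overlap. With DESeq2's size factors in edgeR, 5 members were called lower: Jun, Junb, Egr1, Egr3 and Arc. The same 5 were called without the FPKM filter, and 0 with library totals alone. The share of all genes called in these fits is not given here, so these counts do not set the members apart from other genes.

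These nuclear calls moved with single libraries and with other features of the nuclear D2 libraries. No member was called without D2 no. 1, 2, 5 or 7, only Egr1 without D1 no. 1 or D2 no. 3, and Arc joined Jun and Egr1 without D1 no. 3. Both calls held with the lane number in the library names as a term, and without D1 no. 1 and 3, which were sequenced far more deeply than the other nuclear D1 libraries. Library totals had a median of 6964784 counts in nuclear D1 and 38446843 in nuclear D2. Without D1 no. 1 and 3, the D1 libraries left held at most 8154682 counts, so that fit did not even out depth between the groups. Within lane 4, D2 minus D1 in TMM-scaled log2 CPM was -3.18 for Egr1 and -2.61 for Jun, and within lane 5 it was -1.42 and -2.01. By library totals these were -1.44 and -0.91 in lane 4 and -0.41 and -0.98 in lane 5. Jun did not overlap between D1 and D2 in either lane on both scales, and Junb only with TMM. A background assumed to fall evenly over the genome was estimated from 1431 olfactory and vomeronasal receptor genes. It came to 0.578 to 22.2% of counts in nuclear D1 and 32.4 to 52.2% in nuclear D2 libraries. This background predicted from 9.99% of the counts of Arc to 44.8% of those of Fosb and 79.0% of those of Ier2 in nuclear D2. In nuclear D1 it predicted 1.20% for Arc and 18.1% for Fosb. In whole cells the same share was 13.5 to 52.4% in D1 and 8.33 to 36.7% in D2 libraries, and 26.9% of the counts of Fosb were predicted in D1, while in RiboTag libraries it was at most 0.0631%. The predicted counts of Ier2 in whole cell D1 libraries came to 129% of those observed. In whole cell D2 libraries 25.2 counts of Ier2 were predicted and 0 were observed, so the assumption does not hold for every gene. With this background subtracted, Jun and Egr1 were again the 2 members called. Of the 13 MSN markers, all tested in nuclei, 1 was called higher in D2 and 4 lower (median log2 fold change -0.48), where 17.3% of all genes were called. In whole cells 4 of the 13 were called higher in D2 and 3 lower (median 0.70), where 0.807% of all genes were called. Of the 9 microglial markers 3 were tested between D2 and D1 nuclei and 1 was called lower, with a median log2 fold change of -0.19. All 9 summed to 844 to 2235 CPM (median 1622) in nuclear D1 and 455 to 937 CPM (median 645) in nuclear D2 libraries, with overlap. Of 5 astrocyte and 6 oligodendrocyte markers tested, 1 each was lower (medians -0.37 and -0.34). Endothelial markers summed to 6.63 to 129 CPM in nuclear D1 and 159 to 270 CPM in nuclear D2 libraries. Oligodendrocyte precursor markers summed to 13.6 to 57.2 and 61.9 to 81.4 CPM. Neither set overlapped between the groups. The part of these cells in the result was not tested.

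In whole cells no member was called of the 9 tested, where 0.807% of the 17344 genes tested were. Lane numbers were 1 or 2 in D1 and 5 or 6 in D2 libraries, apart from a further lane summed into D2 no. 3. Lane and cell type therefore cannot be told apart in this comparison. Arc had the largest difference, at 1.40 FPKM median and 0.458 to 2.69 FPKM in D1 and 2.14 FPKM median and 1.01 to 7.25 FPKM in D2 libraries. The groups overlapped, and the highest value, in D2 no. 5, stood apart from the other 5. The log2 fold change of Arc was 0.85 (SE 0.292, adjusted p = 0.174), and DESeq2 called it. Npas4 was at 0.292 to 0.583 FPKM in D1 and 0.358 to 1.15 FPKM in D2 libraries, with a log2 fold change of 0.51 (SE 0.244, adjusted p = 0.38). Arc and Npas4 were the 2 members with an unadjusted p under 0.05 by edgeR. The other 7 members lay between -0.53 (Jun, SE 0.373) and 0.36 (Egr1, SE 0.297). On simulated data for these libraries, edgeR recovered 41% of genes with a log2 change of 1.5, so smaller changes would often have been missed.

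On ribosomes no member passed the test between cell types. In libraries labelled male, 0 of 8 members tested were called, where 3.89% of the 6819 genes tested were, and 1, Jun, had an unadjusted p under 0.05. Jun was at 2.36 to 3.97 FPKM (median 3.31) in D1 and 2.31 to 3.17 FPKM (median 2.44) in D2 libraries, a log2 fold change of -0.29 (SE 0.118, adjusted p = 0.133). The log2 fold change was 0.05 for Egr1 (SE 0.122), 0.13 for Egr3 (SE 0.0838) and 0.23 for Arc (SE 0.202), none past the test. The errors were small for the abundant members, and in simulated RiboTag libraries edgeR recovered 100% of genes with a log2 change of 1.5. In libraries labelled female, 0 of 6 members tested were called, where 2.61% of the 7092 genes tested were, and Fosb (-0.51, SE 0.182, adjusted p = 0.135) and Jun (-0.30, SE 0.121, adjusted p = 0.197) had the largest ratios of difference to error. DESeq2 called no member in either RiboTag comparison. With library totals alone Fosb and Jun were called lower in D2 in libraries labelled female, and 0 in those labelled male. Without the 5 libraries labelled male that lacked Y-linked counts, 0 members were called as well. For these repeated fits the shares of all genes called are not given here.

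**Figure D3:**
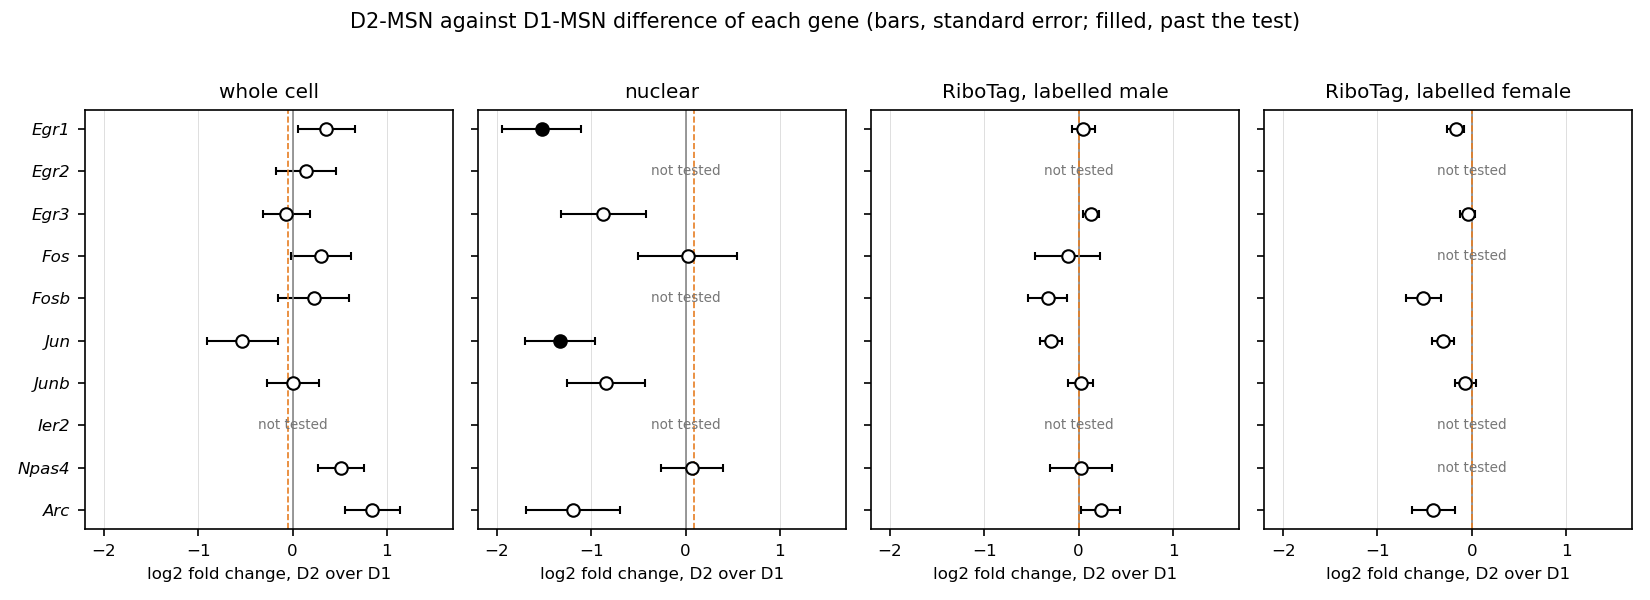
Log2 fold change of D2- over D1-MSNs for each immediate early gene within each method, with its standard error; filled points passed the test, and the dashed line is the median of all genes tested. In nuclei Egr1 (-1.53) and Jun (-1.33) are filled, and in whole cells and both RiboTag sets no point is.

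The cell type difference itself differed between methods for several members, on the scale of TMM. In 1 fit of the 37 libraries labelled male, D2 minus D1 in whole cells minus the same in nuclei was, relative to the median of the 36239 genes tested, 4.02 for Arc (SE 0.688, adjusted p = 0.000287 before centring), 3.78 for Egr1 (SE 0.599, adjusted p = 0.000148), 2.78 for Junb, 2.69 for Egr3, 2.64 for Jun and 2.25 for Npas4. These 6 of 9 members tested were called higher, where 23.3% of all genes were called and 16.7% were called higher. In whole cells lane changed together with cell type, so their parts in this difference cannot be told apart. Against RiboTag in place of whole cells, Egr1 (3.09), Arc (2.95), Egr3 (2.47), Jun (2.46) and Junb (2.32) were called higher, where 13.9% of all genes were called and 12.5% were called higher. Between RiboTag and whole cells 0 members were called, where 0.0993% of genes were. These tests share the nuclear libraries and depend on scaling: with library sizes set by 12 reference genes such as Actb and Gapdh, 0 members were called in the first and 1 in the second, and with library totals alone 1 and 0; each of these was Fosb, in the other direction. Without the 5 RiboTag libraries labelled male that lacked Y-linked counts, 0 of the 5 calls against RiboTag remained. For these repeated fits the shares of all genes called are not given here.

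The reference genes had differences of the same sign as the members in these fits. In D2 nuclei against D1 nuclei, 6 of the 8 reference genes tested were lower, with a median log2 fold change of -1.67 beside -0.87 for the members and 0.09 for all genes, and Actb changed by -2.88 (SE 0.518, adjusted p = 0.00847). Of the heat shock genes, which encode chaperones and respond to cell stress, 3 of 6 were lower (median -1.14), among them Hspa8 at -2.71 (SE 0.491). Later response genes, which immediate early factors help to switch on, had 4 of 8 lower, with Scg2 at -2.45 (SE 0.385) and Vgf at -1.48 (SE 0.305), both of which encode secreted neuropeptide precursors. Of 17 other rapid response genes tested, 2 were lower: Jund, an AP-1 subunit, at -1.86 (SE 0.499), and Mcl1, a survival factor of the Bcl2 family, at -0.75 (SE 0.232). Of 11 upstream regulators, such as kinases and cofactors of CREB, 2 were lower, and Crtc2, a cofactor of CREB, was the 1 higher at 0.83 (SE 0.228). In the difference between whole cells and nuclei the reference genes had a median of 1.93 beside 2.15 for the members. The nuclear difference of the members thus lay beside differences of the same sign in genes of other kinds.

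Between methods, whole cells stood on opposite sides of nuclei in the 2 cell types. Lane numbers were 4 or 5 in nuclear, 1 or 2 in whole cell D1 and 5 or 6 in whole cell D2 libraries, apart from the further lane of D2 no. 3. Lane and method therefore cannot be told apart in D1 and overlapped only in part in D2. In D1-MSNs, Egr1 was at 1.29 FPKM in whole cells against 3.70 FPKM in nuclei, Arc at 1.46 against 4.15 FPKM and Npas4 at 0.448 against 1.25 FPKM. These 3 of 9 members tested were called lower in whole cells, at log2 fold changes relative to the median gene of -2.03 (SE 0.388), -1.99 (SE 0.446) and -1.91 (SE 0.344), where 17.2% of all genes were called and 11.5% were called lower. With library totals in place of TMM none of the 3 was called and 6 others (Fos, Fosb, Jun, Junb, Egr2 and Egr3) were called higher, so the sign of an absolute change is set by the scaling. Markers of other cells were lower in whole cells as well: 6 of 6 oligodendrocyte markers (median log2 fold change -3.03), 4 of 6 astrocyte markers (-2.15) and 7 of 9 microglial markers (-1.42), and their part in the members' difference was not tested. Fos (-0.45, SE 0.453), Fosb (-0.24), Egr2 (-0.17) and Junb (0.24) lay near the median gene and were not called. In D2-MSNs, 6 of 9 members were called higher in whole cells than in nuclei, where 18.3% of all genes were called and 13.8% were called higher. They were Junb (3.02 relative to the median gene, SE 0.453), Arc (2.03, SE 0.520), Jun (1.77), Egr1 (1.76), Fos (1.75, SE 0.501) and Egr3 (1.55). Npas4 (0.35, SE 0.381) was not. The value of Junb includes any fragments of Prdx2 from the bases that these genes share. Here 5 of 6 oligodendrocyte markers were lower and 1 higher, 3 of 6 astrocyte markers were lower, and 1 of 9 microglial markers was higher. Without whole cell D2 no. 5, which held the highest Arc and Fos, 3 of the 6 calls remained (Jun, Junb and Egr1), and setting library sizes by reference genes called 5 members lower and 0 higher. The shares of all genes called in these repeated fits, and with library totals, are not given here. Those counts thus do not set the members apart from other genes.

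In that contrast of D2 cells with D2 nuclei, the members stood beside other lists. Their median log2 fold change was 1.54, beside 1.59 for the reference genes (9 of 12 higher), 1.44 for the heat shock genes (4 of 8 higher), 0.93 for later response genes (7 of 12 higher and 3 lower) and -0.21 for all genes. The other rapid response genes had a median of 0.39, with 9 of 35 higher, led by Rgs2 at 3.29 (SE 0.469), a regulator of G protein signalling, and Jund at 3.19 (SE 0.462), and 2 lower. In D1 cells against D1 nuclei, the members' median was -0.59, that of the reference genes 0.02 and that of all genes 0.27, and the other rapid response genes had 4 lower, led by Nr4a2 at -1.97 (SE 0.511) and Per1 at -1.56 (SE 0.224), and 1 higher.

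On ribosomes, all 9 members tested lay above the median gene when compared with either sorted fraction. Against whole cells, Egr1 was at 6.02 (SE 0.405) relative to the median in D1 and 5.50 (SE 0.445) in D2, Egr3 at 5.80 and 5.75, Jun at 4.80 and 4.79, Arc at 4.75 and 3.85, Fosb at 4.14 and 3.43, Junb at 3.71 and 3.42, Fos at 3.04 and 2.27, Npas4 at 2.53 and 1.74, and Egr2 at 1.72 and 2.08. The median gene itself was at -2.37 and -2.30. On the TMM scale 6 members were called higher in each cell type (Fosb, Jun, Junb, Egr1, Egr3 and Arc), where 77.5 and 75.5% of all genes were called and 20.6 and 20.0% were called higher. With library totals in place of TMM, 7 were called lower and 0 higher in each, so the absolute direction depended on scaling. The share of all genes called with library totals is not given here. The place of each member among protein-coding genes, given next, was computed on the TMM scale alone.

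That place differed widely among members. Of 20605 protein-coding genes, 99.6% in D1 and 99.1% in D2 had a lower ratio of ribosomes to whole cells than Egr1, and 99.5 and 99.4% had a lower one than Egr3. For Jun the shares were 97.3 and 97.2%, for Arc 97.0 and 87.9%, for Junb 85.1 and 80.7%, and for Fosb 91.6 and 80.8%. Fos, at 72.0 and 61.1%, Npas4, at 62.8 and 53.8%, and Egr2, at 51.7 and 58.4%, were nearer to the middle of the protein-coding genes. The counts cover whole gene bodies, introns included, and the part of this in the place of a gene was not tested. The members span 1522 to 7356 bases, of which 50.6 to 100% are exonic, while the median protein-coding gene spans 17382 bases of which 20.5% are exonic.

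Against nuclei the same 6 members except Arc were called in D1-MSNs. Relative to the median gene (-2.49), Egr3 was at 5.06 (SE 0.412), Egr1 at 4.39 (SE 0.426), Junb at 4.34, Jun at 4.32 and Fosb at 4.29, and these 5 were called higher, where 70.6% of all genes were called and 17.7% were called higher. Npas4 was called lower on the TMM scale, as 52.9% of all genes were, at -1.48 (SE 0.390, adjusted p = 0.00121), although at 1.01 it lay above the median gene, and it lay below the median of protein-coding genes, at -0.39, when these alone were counted. Arc and Fos were at 3.15 and 2.98 and were not called before centring. In D2-MSNs, relative to a median of -2.79, Egr3 was at 7.58 (SE 0.488), Egr1 at 7.53 (SE 0.519), Jun at 6.84, Junb at 6.72, Arc at 6.16, Fosb at 4.47 and Fos at 4.30, and these 7 were called higher, where 84.0% of all genes were called and 23.0% were called higher. Setting library sizes by reference genes turned the absolute direction in both: 7 and 9 members were then called lower and 0 higher. Without the 5 libraries labelled male that lacked Y-linked counts, 7 members were called against nuclei in each cell type and 6 against whole cells in each. The share of all genes called in these repeated fits is not given here.

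With each contrast tested again after centring on the median of all genes, which was chosen after seeing the data, more members passed and more of the background did too. Whole cells against nuclei then had 4 members lower in D1-MSNs (Egr3 joined Egr1, Arc and Npas4), where 20.1% of all genes were called and 17.7% were called lower, and 8 higher in D2-MSNs, all but Npas4, where 24.5% were called and 21.4% were called higher. Ribosomes against nuclei had 8 higher in D1-MSNs, again all but Npas4, where 52.7% were called and 36.7% were called higher, and all 9 higher in D2-MSNs, where 62.0 and 39.1% were. Ribosomes against whole cells had all 9 higher in both cell types, where 61.0% in D1- and 59.9% in D2-MSNs were called, and 40.1 and 39.3% were called higher.

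**Figure D4:**
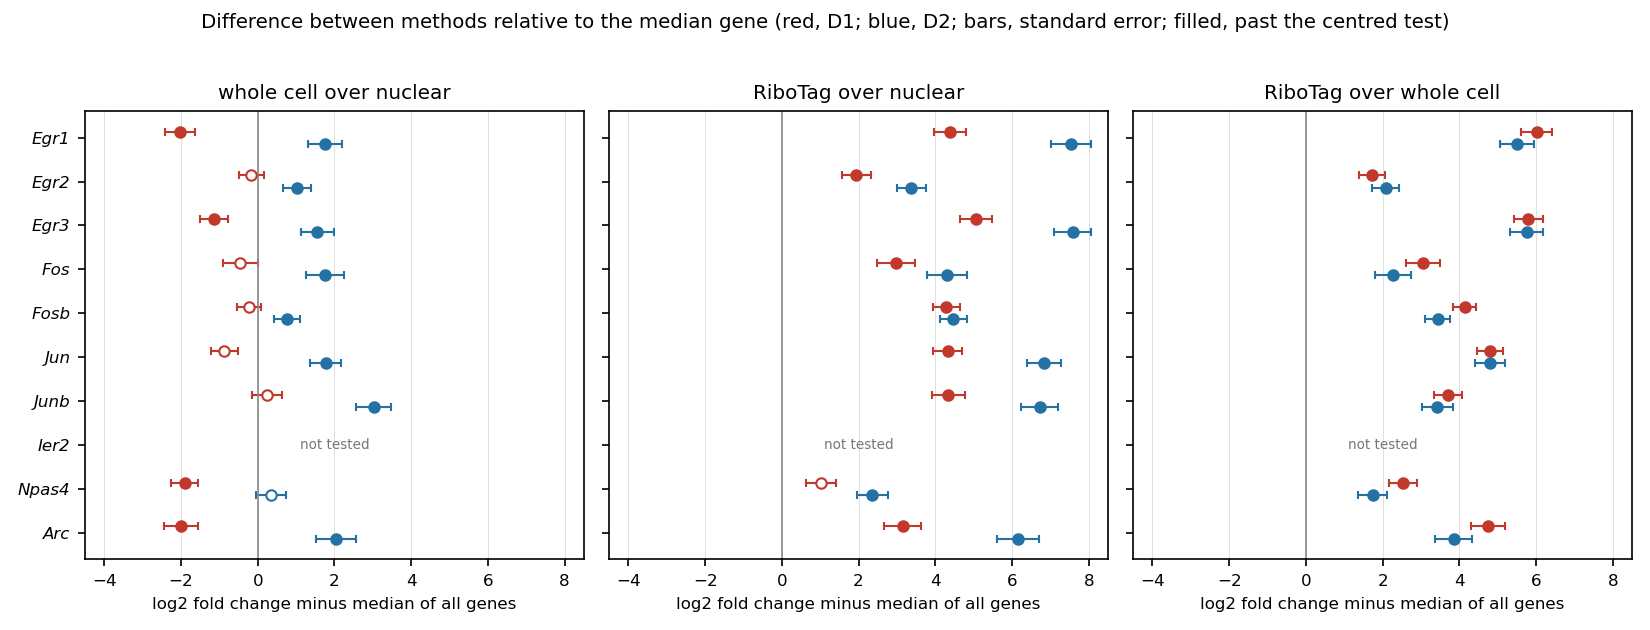
Log2 fold change between methods minus the median of all genes tested, for D1-MSNs (red) and D2-MSNs (blue), with standard errors; filled points passed the test after centring on that median. Ribosomes lie above both sorted fractions for every member shown, with Egr1 and Egr3 highest (5.50 to 6.02 over whole cells), whereas whole cells lie below nuclei for Egr1 in D1 (-2.03) and above them in D2 (1.76); these directions hold relative to the median gene and not on every absolute scale.

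Some other genes of the response passed the test between cell types on ribosomes. Nr4a2, an orphan nuclear receptor of the rapid response list, was at 0.793 to 1.71 FPKM in RiboTag D1 and 0.0605 to 0.192 FPKM in D2 libraries labelled male, without overlap. Its log2 fold change was -3.36 (SE 0.218, adjusted p = 5.68e-11) there and -4.03 (SE 0.466, adjusted p = 7.23e-06) in libraries labelled female. Nrn1, a neuritin that promotes neurite growth, was lower in D2 as well, at -1.81 (SE 0.326) and -1.78 (SE 0.305). Klf6 (-0.73, SE 0.166) in libraries labelled male and Nr4a3 (-0.49, SE 0.130) in those labelled female were the other rapid response genes called, so 2 of 18 and 2 of 19 were lower and 0 were higher, where 3.89 and 2.61% of all genes were called. Whether this share differs from that of the members was not tested. Without the 5 libraries that lacked Y-linked counts, Nr4a2 (-3.19, SE 0.239) and Nrn1 (-1.89, SE 0.426) were called and Klf6 (-0.79, SE 0.248, adjusted p = 0.0731) was not. The summed CPM of the 3 markers of excitatory neurons, Slc17a7, Slc17a6 and Tbr1, was also lower in D2. It was 17.4 to 40.0 CPM in D1 and 1.27 to 9.91 CPM in D2 libraries labelled male. Both interneuron markers tested were also lower in D2 in each set, and the 5 interneuron markers summed to 11.2 to 14.9 CPM in D1 and 7.68 to 12.9 CPM in D2 libraries labelled male. The part of these cells in the result was not tested.

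By labelled sex, no member passed the test. In D1-MSNs, 0 of 8 members tested and 0% of the 7215 genes tested were called, and in D2-MSNs 0 of 8 members and 0.0693% of genes were. Egr1 in D2 had a mean of 9.99 ± 1.47 FPKM (SD, n = 5) in libraries labelled female and 13.2 ± 2.26 FPKM (SD, n = 6) in those labelled male, a log2 fold change of -0.45 (SE 0.131, adjusted p = 0.265). Egr3 was at 7.94 ± 0.860 and 9.52 ± 1.03 FPKM, a log2 fold change of -0.31 (SE 0.0890, adjusted p = 0.242). In D1 the same genes differed by -0.23 (SE 0.130) and -0.14 (SE 0.0900). No member was called in the difference of these differences. Since 4 of the 6 D1 and 1 of the 6 D2 libraries labelled male lacked Y-linked counts, the D1 comparison rests on 2 libraries labelled male with Y-linked counts, and without the 5 libraries 0 members were called again.

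Across animals of 1 group, relations of Fos with other members depended on scaling. In whole cell D1 libraries, TMM-scaled log2 CPM of Fos and Arc had Pearson's r = 0.860 (permutation p = 0.00573, adjusted p = 0.177) and Spearman's rho = 0.881 (permutation p = 0.00724, adjusted p = 0.145) over 8 libraries, and r = 0.708 without the 2 libraries farthest from the median of Fos. Fos and Egr1 had r = 0.812 (permutation p = 0.0132, adjusted p = 0.177) and rho = 0.833 (permutation p = 0.0154, adjusted p = 0.205), and r = 0.700 without these 2. Values scaled by TMM share the factor of their library, and with library totals alone the same pairs had r = 0.300 (permutation p = 0.468, adjusted p = 0.679) and rho = 0.214 (permutation p = 0.619) for Arc, and r = 0.289 (permutation p = 0.485, adjusted p = 0.679) and rho = 0.286 (permutation p = 0.501) for Egr1. In nuclear D1 libraries Fos and Egr1 had r = 0.887 (permutation p = 0.0236, adjusted p = 0.177) over 6 libraries, rho = 0.714 (permutation p = 0.136, adjusted p = 0.340) and r = 0.624 without 2, and r = 0.508 (permutation p = 0.306, adjusted p = 0.572) with library totals. None of the 40 relations over 5 groups passed adjustment on either scale. In RiboTag D2 libraries labelled male, Fos and Npas4 had r = 0.864 (permutation p = 0.0542, adjusted p = 0.194) but -0.713 without the 2 farthest libraries, so that relation rested on them; library no. 3 held the highest value of both genes.

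Among the genes whose log2 CPM was most like the mean of the 9 members tested, over 37 libraries labelled male and 10985 genes, were, on the TMM scale, Spry2 (r = 0.934), Grasp (0.926), Zfp365 (0.924) and Selenow (0.922). These correlations run over libraries of 3 methods, and the points share method, depth and scaling.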

How the data were processed

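Ribo-depleted total RNA was prepared with a stranded kit, sequenced as read pairs and aligned by the authors to GRCm38 with HISAT2 2.0.5 (version from the submitters' processing notes). They deposited a raw count of fragments for each of 52636 Ensembl genes, made with featureCounts over whole gene bodies, ignoring strand, counting a fragment for every gene it overlapped and leaving out fragments with several alignments. Of these genes, 52489 (99.72%) were matched to the annotation. The table has 49 columns; the lanes of whole cell D2 no. 3 and the repeat column of whole cell D1 no. 1 were summed with the libraries they repeat, leaving 47 libraries. The labels conflict on the number of whole cell samples: titles name 8 D1 and 8 D2, and 8 D1 and 6 D2 libraries were left after summing. This repeat column was also kept apart or left out as alternatives.

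Genes with more than 1 CPM in at least 2 libraries were kept. Within methods they also needed at least 1 FPKM in at least 1 library and at most 50000 in all (whole cell, nuclear), or at least 0.1 FPKM in at least 2 libraries (RiboTag). Comparisons of cell types, methods and labelled sexes used the quasi-likelihood test of edgeR on TMM-scaled libraries, and p-values were adjusted by Benjamini-Hochberg. Dividing the size of a log2 fold change by the root of its F statistic gave the standard error. Ratios and correlations were tested by two-sided exact permutation tests. Log2 CPM had a prior count of 1. Floors cover counting error only. A p-value measures the spread between mice as labelled.

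The software was edgeR 4.0.16 and DESeq2 1.42.0 under R 4.3.3, and SciPy 1.17.1, NumPy 2.4.6, matplotlib 3.10.9 and pandas 2.3.3 under Python 3.11.15. The test was checked on simulated data with 200 genes changed by a log2 fold change of 1.5: edgeR recovered 41% at the whole cell sizes (17344 genes), 41% at the nuclear sizes (10192 genes) and 100% at the RiboTag sizes labelled male (6819 genes), and false calls made up 5.75, 4.65 and 2.44% of its calls.

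The members and the gene lists were chosen with earlier results of these data known. All members are named, and from each other list the counts called and up to 2 called genes with the largest absolute log2 fold change. Some genes that this rule names are not reported here. Chosen after seeing the data were the ratios, the centring of contrasts between methods on the median gene, the subtraction of background within methods, the fit without nuclear D1 no. 1 and 3, library totals alone within methods, and the fits, ratios and levels without libraries labelled male that lacked Y-linked counts.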

Additional observations from a re-analysis of the deposited data

Results flagged for a closer look

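Of 78 groups of 4 to 10 libraries tested for a library standing apart from the rest, 8 had one. Chance gives about 1 in 20 only if values are normally distributed, which was not checked for these FPKM. All 8 stood at the high end, so their number is not read as an excess over chance. In whole cell D2 libraries, no. 5 was highest for both Fos (1.57 FPKM) and Arc (7.25 FPKM). In RiboTag D2 libraries labelled male, no. 3 was highest for Fos (1.49 FPKM) and Npas4 (1.04 FPKM). In nuclear D1 libraries, no. 1 was highest for Fosb (0.407 FPKM) and Ier2 (0.592 FPKM). Ier2 was also far above the rest in nuclear D2 no. 7 (0.389 FPKM) and in RiboTag D1 no. 4 labelled male (0.497 FPKM), where it rests on at most 9 counts.

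The difference of D2- from D1-MSNs differed between methods, by the test of that difference, for 6 members between whole cells and nuclei and for 5 between RiboTag and nuclei. Of all genes, 23.3% were called and 16.7% were called higher in the first, and 13.9 and 12.5% in the second. Relative to the median gene, whole cells minus nuclei gave 4.02 for Arc, 3.78 for Egr1, 2.78 for Junb, 2.69 for Egr3, 2.64 for Jun and 2.25 for Npas4. Lane and cell type cannot be told apart in whole cells. RiboTag minus nuclei gave 3.09 for Egr1, 2.95 for Arc, 2.47 for Egr3, 2.46 for Jun and 2.32 for Junb. These tests share the nuclear libraries and depend on scaling. None of the calls against RiboTag remained without the RiboTag libraries labelled male that lacked Y-linked counts. The share of counts predicted from olfactory and vomeronasal receptor genes was 40.0% on average in nuclear D2, 7.43% in nuclear D1, 31.1% in whole cell D1 and 19.7% in whole cell D2 libraries and at most 0.0631% in a RiboTag library, and its part in these differences was not tested.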

How the results depend on the processing

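Depth limits the low members most: Ier2 never exceeded 46 counts in a library, and Fos fell to 1 count in nuclear D2 no. 7. The number of members called between D2 and D1 went from 2 to 5 in nuclei with DESeq2's size factors, without the FPKM filter and without any filter, from 2 to 0 in nuclei and from 0 to 2 (Fosb and Jun) in RiboTag libraries labelled female with library totals alone, from 0 to 1 in whole cells with DESeq2, and from 0 to 1 (Ier2) in RiboTag libraries labelled female without any filter. With library totals alone, 6 members were called between whole cells and nuclei in D1 and 3 in D2, and 1 and 0 in the differences of cell type between whole cells and nuclei and between RiboTag and nuclei. With library sizes from reference genes the latter 2 counts were 0 and 1. Without the RiboTag libraries labelled male that lacked Y-linked counts the difference between RiboTag and nuclei had 0. The cause was not tested in any of these. The shares of all genes called under these alternatives are not given here, so the counts do not set the members apart from other genes. Relative to the median gene, the sign turned for Fos (0.0398) and Fosb (0.046) in whole cells against nuclei in D1 with library totals, for Npas4 (-0.39) in RiboTag against nuclei in D1 with protein-coding genes only, and for Fosb (-0.27) in the difference between RiboTag and nuclei with reference genes. Leaving out each library in turn gave 0 to 3 members in nuclei, 2 to 4 (D1, 2 without nuclear D1 no. 1) and 3 to 7 (D2, 3 without whole cell D2 no. 5) between whole cells and nuclei, 6 to 7 and 7 to 7 between RiboTag and nuclei, 6 to 7 in each cell type between RiboTag and whole cells, 5 to 7 and 4 to 5 in the differences against nuclei, and 0 to 0 in the others. All 44 ratios kept their side of the threshold with 1 count added in place of 0.5. Without the RiboTag libraries labelled male that lacked Y-linked counts, no ratio past the threshold turned its sign. RiboTag libraries labelled male share replicate numbers across cell types. Deviations of same-numbered libraries correlated at -0.028 to 0.151 over 6819 genes, and 1 of 6 numbers had its own as the best match, so the numbers were not taken as pairs; with the replicate block 0 members were called, as without it.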

Other observations

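The 8 heat shock genes, which encode chaperones, summed to 398 to 2543 CPM in whole cell D1, 354 to 1639 CPM in whole cell D2, 178 to 446 CPM in nuclear D1, 77.9 to 131 CPM in nuclear D2 and 381 to 557 CPM in RiboTag libraries. The 35 other rapid response genes summed to 332 to 594 CPM in whole cell D1, 122 to 259 CPM in nuclear D1 and 62.5 to 87.5 CPM in RiboTag D1 libraries labelled male, where the 10 members summed to 66.8 to 177, 51.3 to 104 and 33.4 to 61.6 CPM. In D2 whole cells and nuclei overlapped: the rapid response genes summed to 193 to 497 and 245 to 314 CPM, and the members to 54.8 to 193 and 47.4 to 89.2 CPM. Sums in CPM depend on the total of each library and were not tested. Atf3, a stress-responsive factor of the rapid response list, was lower on ribosomes than in whole cells in D1-MSNs, at -3.83 relative to the median gene (log2 fold change -6.21, SE 0.730), where the 9 members tested lay above it.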
